A study of Homo sapiens with 37 samples.

Results

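The 10 genes described here are the erythropoietin receptor gene EPOR, the genes of the kinase and transcription factors it signals through (JAK2, STAT5A and STAT5B), the STAT5 targets CISH, SOCS2, SOCS3 and PIM1, and the tyrosine kinase genes KIT and LYN. They were chosen by name as members and targets of the pathway, and are 10 of the 32055 genes in the count table. Their levels were measured in 37 libraries of K562, an established human erythroleukemia cell line that carries the BCR-ABL1 fusion. In 26 libraries the cells had received a px458 plasmid, which encodes Cas9, with 1 of 2 gRNAs against ZBTB7A (KO), and in 11 the same plasmid without a gRNA (Control). Single cells were sorted and expanded after transfection, so each line goes back to 1 cell, but the labels name libraries only by a well barcode of 6 bases and by KO or Control. Neither the clone nor the gRNA behind a library is stated there, some libraries may therefore be repeats of 1 clone, and p-values measure the spread between libraries, which may in part be technical. Libraries are numbered here within KO and within Control in the order of the deposited samples, as names that carry no other meaning. ZBTB7A is a transcription factor with roles in erythroid and myeloid development. RNA of 10000 lysed cells per library was read by bulk SCRB-seq, which captures the poly(A) end of a transcript and tags each captured molecule with a unique molecular identifier (UMI).

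Erythropoietin binds EPOR on red cell progenitors and brings together the JAK2 molecules attached to its cytoplasmic tail. JAK2 then phosphorylates the receptor and STAT5A and STAT5B, which pair, enter the nucleus and switch on genes such as CISH, SOCS2, SOCS3 and PIM1. CISH and the SOCS proteins in turn bind the receptor or JAK2 and damp the signal, and PIM1 is a kinase that supports survival. In K562, BCR-ABL1 also keeps STAT5 phosphorylated without cytokine. Transcript levels do not show phosphorylation, and none was measured in these libraries.

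Levels are given as log2 CPM, that is counts per 1e+06 UMIs of the library after TMM normalization, on a log2 scale with a prior count of 2. Each molecule is read at its 3′ end and counted once, whatever the length of the transcript. Total UMIs ran from 1070250 to 4270901 in KO (median 2030965) and from 563235 to 4710809 in Control libraries (median 3518944), the shallowest being Control library 7. Barcodes with fewer than 3 G or C (AT-rich) marked 12 KO and 8 Control libraries, and barcodes with more than 3 (GC-rich) 12 KO and 1 Control library, so the AT-rich libraries were also compared alone. KO library 18 was the KO library nearest to Control levels in STAT5A, PIM1 and LYN, and each result that rests on it is given without it. In EPOR it lay above every Control library (4.75 log2 CPM) and in JAK2 below every one (3.27 log2 CPM). ZBTB7A itself had a log2 fold change of 0.12 (SE 0.09, adjusted p = 0.331, edgeR). UMI counts do not show whether the gene sequence was edited, so this level does not check the labels. In the paper, the expanded single cells were checked for ZBTB7A by Western blot and Sanger sequencing. Markers of K562 and erythroid cells (11 of 12 listed genes in the table, the globin genes HBG1 and HBG2 among them) summed to 2484 to 9101 CPM in KO and 3392 to 8177 CPM in Control libraries. This sum is mostly globin. Of its 10 tested genes, ALAS2, the first enzyme of red cell heme synthesis, and TAL1 were higher (log2 fold changes 1.41 and 0.39, adjusted p = 0.00577 and 0.0258, edgeR), and GATA1 and KLF1 lower (-0.19 and -0.22, adjusted p = 0.0303 and 0.0390). Among AT-rich libraries alone ALAS2 passed (adjusted p = 0.0129) and TAL1 and KLF1 did not (0.0736 and 0.292), and without Control library 2, 4, 6, 8 or 9 or KO library 9, 15, 16, 19 or 21 KLF1 did not pass either (up to 0.108). Of 7 megakaryocyte markers in the table the sum was 2.67 to 59.7 CPM in KO and 0.761 to 8.16 CPM in Control libraries. GP1BA was the 1 of these tested (log2 fold change 3.35). ITGA2B, under the count filter, had 237 UMIs over the 26 KO and 70 over the 11 Control libraries, not scaled to depth, and PF4, PPBP and VWF had at most 7 UMIs each over all 37 libraries. The 5 lymphocyte markers summed to 1.38 to 30.1 CPM in KO and 16.3 to 72.9 CPM in Control, with CD3D lower in KO by a log2 fold change of -1.85 and CD3E, CD79A and CD2 at most 8 UMIs each over all libraries. The 7 granulocyte and monocyte markers summed to 2.45 to 12.1 CPM and 2.30 to 9.51 CPM. The part of such cell states in the results below was not tested, and in bulk RNA fewer cells with a transcript and less transcript per cell cannot be told apart.

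All 10 genes were among the 10661 that passed edgeR's filter on low counts. With an adjusted p below 0.05 (edgeR's quasi-likelihood test, Benjamini-Hochberg adjustment over all genes tested), 1 of the 10, EPOR, was higher in KO, where 17.7% of all tested genes were, and 6 (JAK2, STAT5A, CISH, SOCS2, PIM1 and LYN) were lower, where 16.2% of all tested genes were. With an absolute log2 fold change above 0.5 as well, EPOR remained higher and CISH and PIM1 lower, against 6.65% of all tested genes called higher and 3.53% called lower. STAT5B, SOCS3 and KIT did not pass. The median log2 fold change of the 10 genes was -0.38, beside -0.0046 over all genes tested. The receptor transcript thus differed from Control in the direction opposite to the other 6 that passed. Without KO library 18 the same genes passed, with log2 fold changes of 0.98 for EPOR, -0.37 for JAK2, -0.49 for STAT5A, -0.68 for CISH, -0.32 for SOCS2, -0.74 for PIM1 and -0.39 for LYN. Among the 12 KO and 8 Control AT-rich libraries alone these 7 genes also passed an adjusted p of 0.05. Their log2 fold changes there were 0.97, -0.51, -0.71, -0.80, -0.41, -0.95 and -0.41 in the same order. The shares of 17.7% and 16.2% belong to the fit of all libraries. No such share was taken among AT-rich libraries, so the count of 7 has no background there. Past both thresholds 1150 of all genes passed among AT-rich libraries, beside 1085 in the fit of all libraries.

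**Figure D1:**
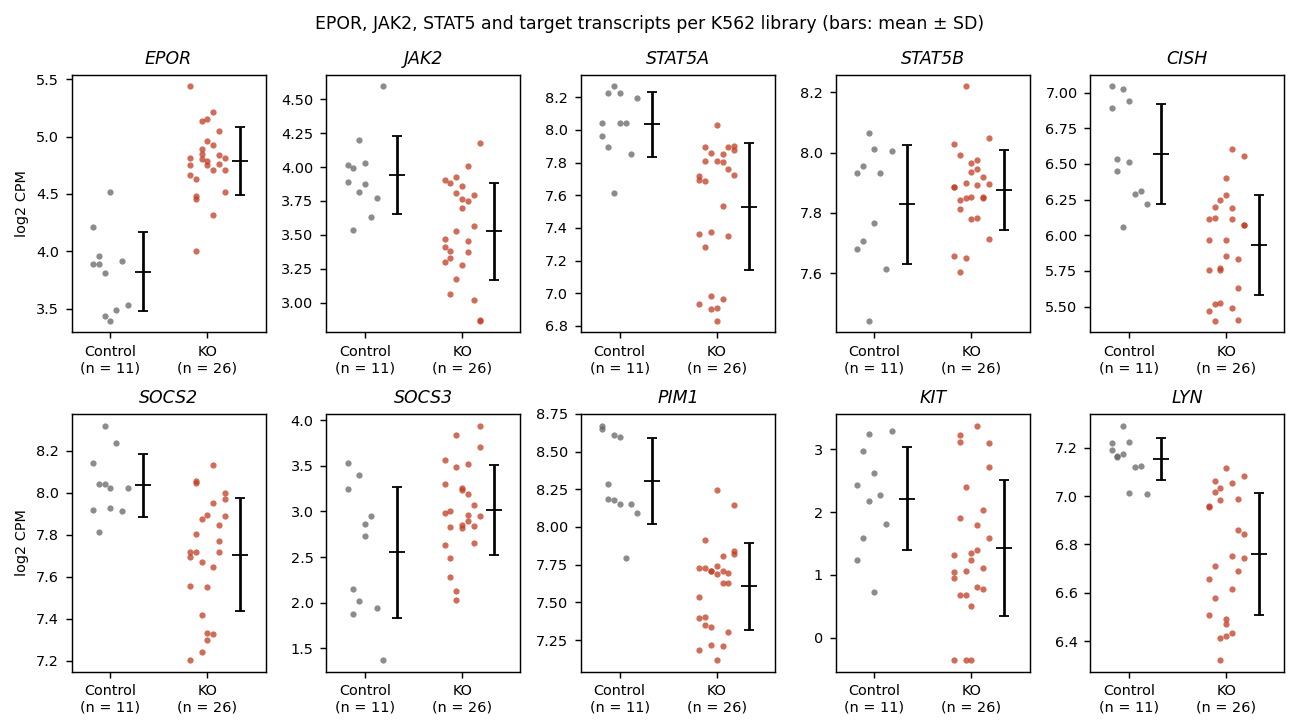
Level of each of the 10 genes in every library, as log2 CPM on an axis fitted to each gene; each point is 1 library (11 Control in grey, 26 KO in red), with the mean and SD of the group in black beside it. EPOR points lie higher in KO (mean 4.79 against 3.82), those of CISH, PIM1, SOCS2 and LYN lie lower, STAT5B overlaps almost fully, and the 3 lowest KIT points are libraries without a KIT UMI.

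EPOR (ENSG00000187266, chr19:11377207-11384342, minus strand, GRCh38) encodes the single-pass receptor that binds erythropoietin. Its level was lowest at 3.39, 3.89 at the median and highest at 4.52 log2 CPM in Control, and 3.999, 4.80 and 5.44 log2 CPM in KO libraries. All 26 KO libraries lay above the Control median and 22 above the highest Control library, number 4. The other 4 KO libraries (numbers 9, 19, 23 and 16) lay inside the upper Control range. The means were 3.82 ± 0.35 (SD, n = 11) and 4.79 ± 0.29 (SD, n = 26), a log2 fold change of 0.97 (SE 0.12, adjusted p = 1.80e-08, edgeR), or 1.96-fold. EPOR was a modest transcript all the same, with 6 to 67 UMIs per Control and 26 to 135 per KO library, or 13.6 and 27.1 CPM on average. KO library 18, with 50 UMIs and 4.75 log2 CPM, lay above every Control library in EPOR. Exons of EPOR overlap those of RGL3 on the same strand, and reads from the shared stretch could be counted to either gene or to none.

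GATA1, the main transcription factor of red cells, is known to act through a GATA element just upstream of the EPOR start, and the 250 bases before the RefSeq start are shown for that reason (GRCh38.p14, chr19:11384315-11384564, minus strand, 5′ to 3′). Capitals mark the 1 match to AGATAA or AGATAG or TGATAA or TGATAG on either strand, read here on the opposite strand from 78 to 73 bases before the start.
EPOR: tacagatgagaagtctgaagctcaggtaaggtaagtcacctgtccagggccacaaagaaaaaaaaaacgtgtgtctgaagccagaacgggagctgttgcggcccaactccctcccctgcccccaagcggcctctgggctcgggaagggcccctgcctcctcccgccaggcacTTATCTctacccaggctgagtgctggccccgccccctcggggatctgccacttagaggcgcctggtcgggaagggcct
At least 1 such match stood in 22.3% of the 35116 promoters of this length, so its presence is common. GATA1 itself was at 8.02 log2 CPM in KO and 8.20 log2 CPM in Control libraries on average, with a log2 fold change of -0.19 (adjusted p = 0.0303, edgeR) that did not pass when AT-rich libraries were compared alone (-0.13, adjusted p = 0.292) or without Control library 4, 6, 8 or 9 (adjusted p up to 0.0906).

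JAK2 (ENSG00000096968, chr9:4984390-5129948, plus strand) encodes the kinase attached to EPOR. Control libraries ran from 3.54 over a median of 3.89 to 4.60 log2 CPM, and KO libraries from 2.87 over 3.50 to 4.18 log2 CPM. The groups overlapped in 12 KO libraries, and the other 14 lay below the lowest Control library, number 9. The highest Control value came from 13 UMIs in the shallowest library, Control library 7. The log2 fold change was -0.38 (SE 0.12, adjusted p = 0.0124, edgeR), with 10 to 57 UMIs per KO and 13 to 64 per Control library. JAK2 thus differed in the direction opposite to its receptor, within a wide counting error per library.

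STAT5A and STAT5B encode closely related transcription factors and are neighbours on chromosome 17. STAT5A (ENSG00000126561, chr17:42287547-42311943, plus strand) and STAT5B (ENSG00000173757, chr17:42199176-42288633, minus strand) run in opposite directions and overlap by 1087 bases at their starts, far from the 3′ ends that were read. STAT5A was at 7.61, 8.04 and 8.27 log2 CPM in Control (lowest, median, highest), and at 6.83, 7.70 and 8.03 log2 CPM in KO libraries. Every KO library lay below the Control median and 11 lay below the lowest Control library. The highest KO value, 8.03, was that of KO library 18. The means were 8.03 ± 0.20 (SD, n = 11) and 7.53 ± 0.39 (SD, n = 26), and the log2 fold change was -0.46 (SE 0.11, adjusted p = 0.00148, edgeR). Among AT-rich libraries alone it was -0.71 (adjusted p = 7.92e-04, edgeR), which is past the fold threshold of 0.5. The AT-rich libraries hold most of the KO libraries lowest in STAT5A.

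STAT5B did not pass the test. It was at 7.44, 7.93 and 8.06 log2 CPM in Control and at 7.60, 7.88 and 8.22 log2 CPM in KO libraries, and 25 of 26 KO libraries lay within the Control range. The log2 fold change was 0.04 with an approximate 95% interval of -0.07 to 0.15 (SE 0.06, adjusted p = 0.589, edgeR), and its sign changed among AT-rich libraries alone (-0.07).

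The balance of the 2 STAT5 transcripts can be read within each library as the share of STAT5A among STAT5A and STAT5B UMIs, which does not depend on how libraries are scaled. In Control libraries the share was 51.9% at the lowest, 53.5% at the median and 55.0% at the highest, with a mean of 53.6% ± 1.06 (SD, n = 11). In KO libraries it was 33.0%, 45.0% and 52.8%, with a mean of 44.1% ± 6.30 (SD, n = 26). STAT5A therefore gave more UMIs than STAT5B in 11 of 11 Control libraries and fewer in 21 of 26 KO libraries. The 95% Wilson interval of the share lay wholly above 50% in 8 of these Control libraries. It lay wholly below 50% in 16 of these KO libraries. The difference of the means was -9.44 percentage points (two-sided permutation test, 100000 resamples, p = 6e-05), and 25 of 26 KO libraries lay below the lowest Control library. The exception was KO library 21, at 52.8% (95% Wilson interval 49.8 to 55.9%, 540 STAT5A and 482 STAT5B UMIs). KO library 18 was next at 51.7% (48.5 to 54.8%), and without it the difference was -9.74 percentage points. Among AT-rich libraries alone, which hold most of the KO libraries with the lowest shares, the difference was -11.9 percentage points (two-sided permutation test, p = 6.2e-04). These intervals cover counting error alone. The 6 lowest KO libraries (numbers 25, 5, 10, 22, 4 and 24) had shares of 33.0 to 35.3%, apart from the next, KO library 13, at 41.4%.

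**Figure D2:**
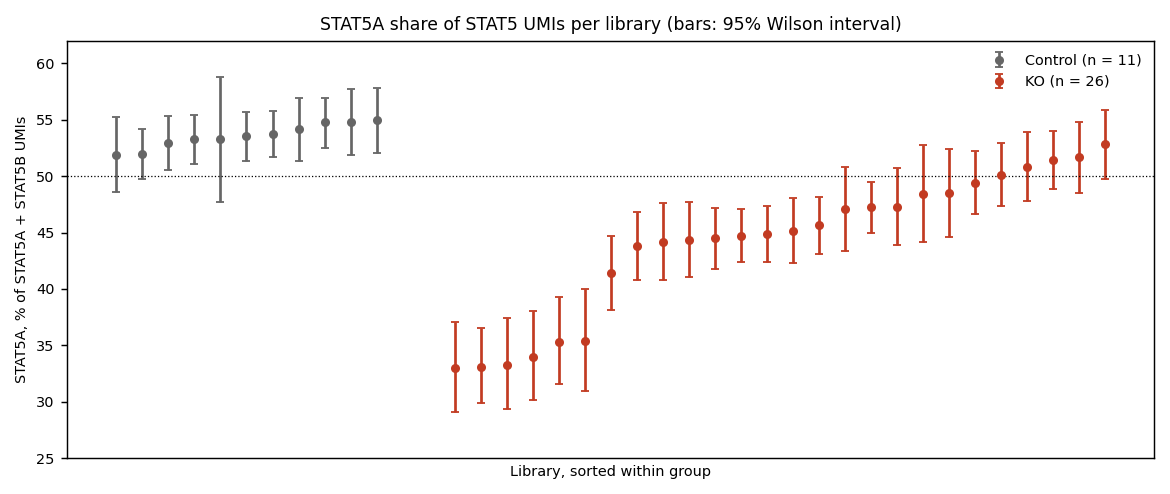
Share of STAT5A among STAT5A and STAT5B UMIs in percent (vertical axis, from 25 to 62) in each library, sorted within its group (horizontal axis); bars are 95% Wilson intervals and the dotted line marks equal shares (50%). The 11 Control libraries lie between 51.9 and 55.0%, whereas KO libraries run from 33.0 to 52.8% with 6 of them apart at the bottom.

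STAT5 dimers bind the palindrome TTCNNNGAA, and CISH is the textbook target with several such elements next to its start, which is why its promoter is shown. These are the 250 bases before the RefSeq start (GRCh38.p14, chr3:50611775-50612024, minus strand, 5′ to 3′), with each match to TTCNNNGAA in capitals.
CISH: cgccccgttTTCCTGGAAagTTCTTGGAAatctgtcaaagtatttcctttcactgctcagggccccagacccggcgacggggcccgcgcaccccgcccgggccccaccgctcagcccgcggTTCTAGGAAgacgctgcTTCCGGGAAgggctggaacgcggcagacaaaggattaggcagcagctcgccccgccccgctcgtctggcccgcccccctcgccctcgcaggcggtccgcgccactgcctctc
The 4 matches start 241, 230, 129 and 112 bases before the gene start and fall into 2 pairs. At least 1 match stood in 6.57% of 35116 promoters and at least 4 in 5 of them (0.0142%). The table held promoters for 8 of the 10 genes (14 in all), and no other promoter of these genes held the palindrome in its 250 bases, which says nothing of more distant elements. SOCS2 and LYN were not in the table.

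CISH (ENSG00000114737, chr3:50606489-50611774, minus strand) encodes a feedback inhibitor that binds the activated receptor. It was at 6.06, 6.51 and 7.04 log2 CPM in Control (lowest, median, highest) and at 5.40, 5.97 and 6.60 log2 CPM in KO libraries. In KO 24 of 26 libraries lay below the Control median and 14 below the lowest Control library, number 3. The means were 6.57 ± 0.35 (SD, n = 11) and 5.93 ± 0.35 (SD, n = 26), a log2 fold change of -0.67 (SE 0.12, adjusted p = 3.67e-05, edgeR), or 1.59-fold lower. UMIs numbered 41 to 513 per Control and 74 to 243 per KO library. CISH shares exon sequence with MAPKAPK3 on the opposite strand, and the strand setting of the counting is not given in the sources used here.

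PIM1 (ENSG00000137193, chr6:37170152-37175428, plus strand), which encodes a serine/threonine kinase, was also lower in KO. It was at 7.79, 8.18 and 8.67 log2 CPM in Control and at 7.12, 7.69 and 8.24 log2 CPM in KO libraries, and 20 of 26 KO libraries lay below the lowest Control library, number 5. The highest KO value was again that of KO library 18. The means were 8.31 ± 0.29 (SD, n = 11) and 7.61 ± 0.29 (SD, n = 26), and the log2 fold change was -0.71 (SE 0.10, adjusted p = 3.87e-07, edgeR), or 1.63-fold lower. Control libraries were themselves split in both genes. Control libraries 1, 4, 8 and 10 held the 4 highest Control levels of CISH, 6.89 to 7.04 log2 CPM with the next at 6.54, and the 4 highest of PIM1, 8.60 to 8.67 log2 CPM with the next at 8.29.

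SOCS2 and SOCS3 encode suppressors of cytokine signaling and gave different results: SOCS2 fell, while the rare SOCS3 did not pass. SOCS2 (ENSG00000120833, chr12:93569814-93583487, plus strand) was at 7.81, 8.02 and 8.32 log2 CPM in Control and at 7.20, 7.72 and 8.13 log2 CPM in KO libraries. In KO 16 of 26 libraries lay below the lowest Control library, and the log2 fold change was -0.31 (SE 0.08, adjusted p = 0.00241, edgeR). Its exons overlap those of the antisense transcript SOCS2-AS1. SOCS3 (ENSG00000184557, chr17:78356778-78360077, minus strand) had few molecules, with 1 to 42 UMIs per Control and 4 to 38 per KO library. It was at 1.37, 2.73 and 3.53 log2 CPM in Control and at 2.03, 2.97 and 3.94 log2 CPM in KO libraries, and 22 of 26 KO libraries lay within the Control range. The log2 fold change of 0.37 (SE 0.21, interval -0.04 to 0.78) did not pass (adjusted p = 0.168, edgeR) and was -0.06 among AT-rich libraries alone.

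KIT (ENSG00000157404, chr4:54657267-54740783, plus strand) encodes the receptor for stem cell factor, which works together with EPOR in early red cell progenitors. It was close to the limit of detection, with 2 to 30 UMIs per Control and 0 to 25 per KO library. Levels were 0.72, 2.28 and 3.29 log2 CPM in Control and -0.35, 1.28 and 3.37 log2 CPM in KO libraries, the lowest KO value standing for 0 UMIs. The 3 KO libraries without a KIT UMI were numbers 4, 10 and 22, and their depth allows a level of up to 1.72 to 2.10 CPM (3 counts). The spread within KO was wide (SD 1.08), 6 KO libraries lay below the lowest Control library and 1 lay above all of Control. The log2 fold change of -0.57 (SE 0.37, interval -1.31 to 0.16) did not pass (adjusted p = 0.244, edgeR). With 7 surrogate variables as covariates it was -1.05 and passed (adjusted p = 1.83e-05, edgeR), and among AT-rich libraries it was -0.91 (adjusted p = 0.182, edgeR).

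LYN (ENSG00000254087, chr8:55879835-56014169, plus strand) encodes a SRC-family kinase that associates with EPOR and is active in BCR-ABL1 cells. Control libraries were tight, at 7.01, 7.16 and 7.29 log2 CPM (lowest, median, highest), while KO libraries ran from 6.32 over 6.75 to 7.12 log2 CPM. All 26 KO libraries lay below the Control median and 20 below the lowest Control library, and KO library 18 was the highest. The log2 fold change was -0.37 (SE 0.07, adjusted p = 8.21e-05, edgeR). The SD among KO libraries, 0.25, was 2.93 times that among Control libraries, 0.09, and 96.6% of tested genes had a smaller ratio. For STAT5A the ratio was 1.98 and for SOCS2 1.80, whereas for STAT5B it was 0.67. A larger SD in KO was common in these libraries (72.2% of tested genes, and 7 of these 10).

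The wide KO spread of STAT5A, SOCS2 and LYN lay in part in the same libraries, a pattern picked out after the values were seen and given as a description. The 6 KO libraries lowest in STAT5A were numbers 25, 10, 4, 22, 5 and 24, at 6.83 to 6.98 log2 CPM with the next KO library at 7.28. They were also the 6 lowest in SOCS2, at 7.20 to 7.42 log2 CPM with the next at 7.55. Of the 6 lowest KO libraries in LYN and in KIT, 5 each belonged to this set, among them the 3 without a KIT UMI. For PIM1 it was 3 of 6, for JAK2, STAT5B and SOCS3 1 of 6 each, and for CISH and EPOR none. In EPOR these 6 libraries ran from 4.71 to 5.15 log2 CPM, above the highest Control library, and in CISH from 5.77 to 6.60 log2 CPM, outside the lowest 6 KO libraries in each. Their totals were 1225590 to 2052701 UMIs, and 5 had AT-rich barcodes and 1 a GC-rich one. Whether they come from 1 clone is not in the labels.

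At the other end, the 4 KO libraries highest in KIT (numbers 19, 9, 23 and 21, 3.10 to 3.37 log2 CPM) were the 4 highest in SOCS2, at 7.999 to 8.13 log2 CPM, and included 3 of the 4 lowest in EPOR. Their EPOR levels were 3.999 to 4.52 log2 CPM. KO library 18, the highest KO library in STAT5A, PIM1 and LYN, was not among the 4 lowest in EPOR.

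**Figure D3:**
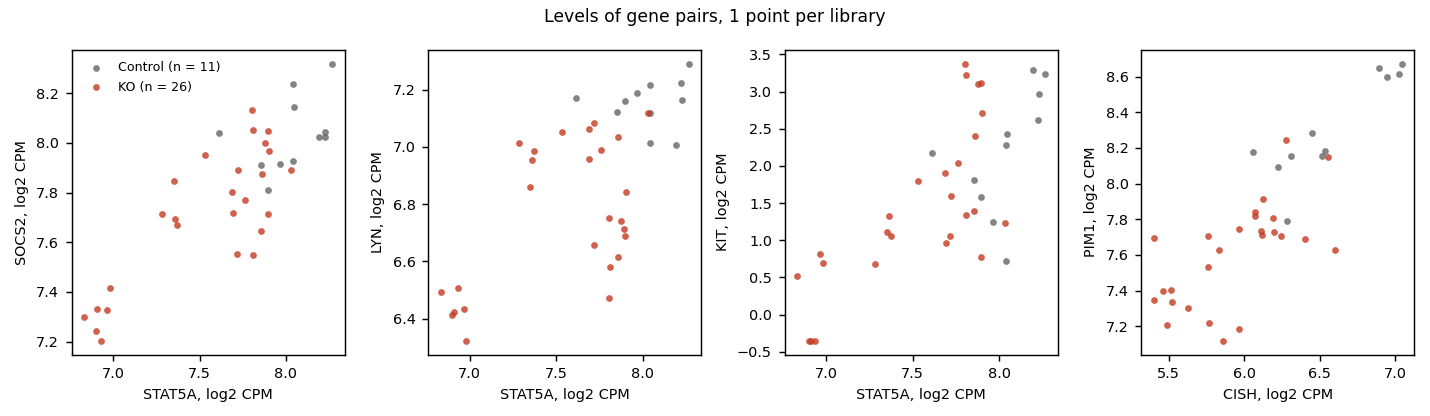
Levels of 4 gene pairs in log2 CPM, 1 point per library (11 Control in grey, 26 KO in red). The 6 KO libraries lowest in STAT5A (6.83 to 6.98 log2 CPM) sit apart along the STAT5A axis, by which they were chosen. They lie at the low end of SOCS2, LYN and KIT, with other KO libraries among them in LYN and KIT. The 3 lowest KIT points have no KIT UMI. CISH and PIM1 rise together in both groups, with 4 Control libraries apart at the upper right.

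The transcripts most like EPOR, CISH and PIM1 over the 37 libraries were looked up among 8588 genes whose mean reached 10 CPM. These correlations describe libraries that share a group difference, so each is given also within KO. For EPOR they were CHST2 (Pearson r = 0.86, Spearman rho = 0.81, 0.61 within KO), TMOD1 (r = 0.84, rho = 0.82, 0.66 within KO) and PPP1R14C (r = 0.84, rho = 0.75, 0.38 within KO). TMOD1 encodes tropomodulin of the red cell membrane skeleton, and its log2 fold change was 0.44 (adjusted p = 2.93e-04, edgeR). CISH and PIM1 were each the other's closest gene (r = 0.84, rho = 0.78, 0.64 within KO and 0.87 within Control). CISH was followed by PCK2 (r = 0.83, rho = 0.76, 0.71 within KO), which encodes a mitochondrial carboxykinase, and both shared DDIT4, an inhibitor of mTOR signaling, as the third (r = 0.80 with CISH and 0.83 with PIM1, rho = 0.73 and 0.79, 0.66 and 0.79 within KO). SMAP2 stood between CISH and DDIT4 for PIM1 (r = 0.84, rho = 0.83, 0.67 within KO). Within Control its r with PIM1 was 0.31, where that of CISH was 0.87 and that of DDIT4 0.92.

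Of 87 other pathway genes listed by role, 85 were in the table and 58 passed the filter. With an adjusted p below 0.05 (edgeR), 16 were higher and 8 lower in KO, beside 17.7% and 16.2% of all tested genes. Past the fold threshold as well 8 were higher and 2 lower, beside 6.65% and 3.53% of all tested genes, so the counts of lower genes are close to what all genes give. Without a filter on low counts 11 passed both thresholds, 5 higher and 6 lower, beside 1720 over all genes. That setting also tests list genes outside the 58, and the shares just given are no background to it. No excess of lower pathway genes is therefore read from it. The median log2 fold change of the 58 was 0.09. The shares of all tested genes stand as background to the counts by role as well, each of which rests on few genes. Among 9 tested kinases, 4 were higher and 1 lower (17.7% and 16.2% of all tested genes). Among AT-rich libraries alone 2 of these, FYN (0.48) and the lower TYK2 (-0.17), did not pass (adjusted p = 0.0862 and 0.122, edgeR). FYN was also lost without Control library 1, 2, 5, 7, 10 or 11 (adjusted p up to 0.0842) and TYK2 without Control library 1, 2, 6, 9, 10 or 11 or KO library 1, 2, 5 or 19 (up to 0.0926). JAK1, the kinase of interferon and interleukin receptors, was at 5.26 log2 CPM in Control and 5.95 log2 CPM in KO on average, with 24 of 26 KO libraries above the highest Control library (log2 fold change 0.67, SE 0.08, adjusted p = 1.63e-08, edgeR). JAK1 and JAK2 thus differed from Control in opposite directions. YES1, a SRC-family kinase like LYN, was also higher (0.54, SE 0.06), with 23 of 26 KO libraries above the highest Control library. ABL1, whose 3′ end the BCR-ABL1 transcript carries, was at 7.39 log2 CPM in KO and 7.31 log2 CPM in Control libraries and did not pass (log2 fold change 0.09, adjusted p = 0.0768, edgeR). BCR was at 5.24 log2 CPM in KO and 5.25 log2 CPM in Control libraries and did not pass either (adjusted p = 0.976, edgeR).

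Among the other STAT genes, 4 were tested, and STAT2 and STAT3 were higher with an adjusted p close to the threshold (log2 fold changes 0.25 and 0.46, adjusted p = 0.0475 and 0.0379, edgeR). Neither passed with limma-voom. STAT3 did not pass when Control library 1, 2, 3, 5, 10 or 11 or KO library 4, 5, 10, 24 or 25 was left out (adjusted p up to 0.0618), nor STAT2 without Control library 3, 5, 6, 8, 9 or 11 or KO library 1, 4, 5, 8, 10, 18, 20, 23, 24 or 25 (up to 0.0896). STAT3 lies next to STAT5A, and the 3′ ends of the pair face each other across 1380 bases. Of 17 tested adaptors and relays, 5 were higher and 3 lower (17.7% and 16.2% of all tested genes). PIK3CA, a catalytic subunit of PI3 kinase, was higher by 0.58 (SE 0.10) and VAV1, an exchange factor of blood cells, fell by 0.59 on the log2 scale (SE 0.18). CBLB, a ubiquitin ligase, was higher by 0.59, but with an adjusted p of 0.411 (edgeR) among AT-rich libraries alone and 0.0559 without Control library 1. Of 14 tested inhibitors, 1 was higher and 2 lower (17.7% and 16.2% of all tested genes). The lower ones, the phosphatase genes PTPN11 (-0.15) and PTPN1 (-0.16), did not pass among AT-rich libraries alone (adjusted p = 0.0956 and 0.177, edgeR), nor PTPN1 without Control library 3 (0.0619). The higher one was PTPRC, which encodes the phosphatase CD45, with a log2 fold change of 1.82 (SE 0.44, adjusted p = 0.00152, edgeR). PTPRC was split among KO libraries (SD 1.48 log2 CPM), where 19 exceeded all Control libraries and 6 fell short of all of them, and did not pass among AT-rich libraries alone (adjusted p = 0.0736, edgeR).

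Of 13 tested further target genes, 4 were higher and 2 lower (17.7% and 16.2% of all tested genes). CCND3, the cyclin D of red cell progenitors, was at 7.58 log2 CPM in Control and 8.83 log2 CPM in KO on average, with 25 of 26 KO libraries above the highest Control library (log2 fold change 1.24, SE 0.15, adjusted p = 3.63e-08, edgeR). The anti-apoptotic gene BCL2L1 was higher by 0.32, and ID1 and DUSP5 by 0.53 and 0.63. Among AT-rich libraries alone neither ID1 nor DUSP5 passed (adjusted p = 0.273 and 0.390, edgeR). The call was also lost without Control library 1 or 5 for BCL2L1 (adjusted p up to 0.0649), without Control library 2, 3, 6 or 10 for DUSP5 (up to 0.0611), and without Control library 3, 4, 6, 9 or 11 or KO library 4, 5, 8 or 24 for ID1 (up to 0.0781). MYC fell by 0.50 on the log2 scale (SE 0.12) and TFRC, the transferrin receptor gene, by 0.37 (SE 0.06), with 18 and 20 of 26 KO libraries below the lowest Control library. Target genes of the pathway that passed the test were thus found in both directions.

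**Figure D4:**
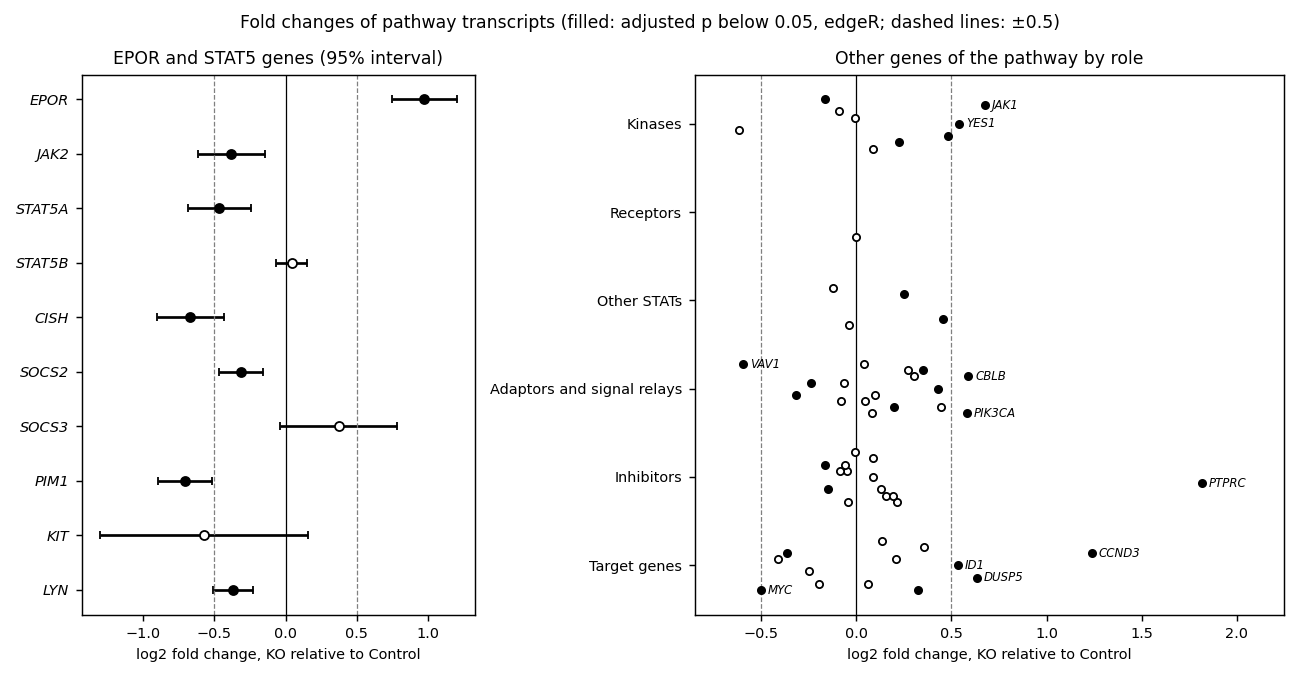
Log2 fold change of KO relative to Control (horizontal axes) for the 10 genes with bars of the 95% interval (left) and, without bars, for 58 further pathway genes by role (right), where points of a role are spread vertically to keep them apart. Filled points have an adjusted p below 0.05 (edgeR) and dashed lines mark ±0.5; EPOR (0.97) lies alone to the right among the 10, and PTPRC (1.82) and CCND3 (1.24) lie farthest right among the others.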

How the data were processed

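Bulk SCRB-seq libraries of K562 cells, 26 KO and 11 Control, were compared. The authors mapped reads to hg38 (STAR 2.6.0a per the submitters' processing notes) and used zUMIs with the Ensembl GRCh38.84 genes to count UMIs. The zUMIs version is not given in the sources used here. Raw UMI counts for 32055 Ensembl identifiers were deposited. Columns were matched to samples by the barcode and group in the labels. Symbols and positions came from GENCODE release 44 (31323 identifiers paired), and promoter sequences from RefSeq on GRCh38.p14. Listed genes without a row in the table were not analysed here.

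A robust quasi-likelihood fit with group as its single term was made in edgeR 4.0.16 (R 4.3.3) after filterByExpr and TMM, over 10661 genes. UMI totals of 563235 to 4710809 per library and a common biological coefficient of variation of 0.154 set the precision. The thresholds were 0.05 for the adjusted p and, as a further step, 0.5 for the size of the log2 fold change. SEs were derived from the F statistic (size of the fold change over the root of F), and 95% intervals from the SE with normal quantiles. The STAT5A share was compared by a two-sided permutation test. Among 380 pairs of libraries within a group none agreed within counting noise (chi-square test on genes holding 10 or more counts in the pair, smallest ratio to degrees of freedom 1.14, p = 3.31e-23), so none were merged. Over so many genes a small excess over counting noise is enough for this result. The test therefore does not show whether libraries are repeats of 1 clone.

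The genes and lists were chosen with earlier results of these data known. All 10 genes are named, with other pathway genes past both thresholds and the 3 genes closest to EPOR, CISH and PIM1 by Pearson correlation. The other list genes in the text, such as GATA1, ALAS2, TYK2, FYN, SYK, ABL1, BCR, STAT2, STAT3, PTPN11, PTPN1, IL2RG, BCL2L1, TFRC, GP1BA, ITGA2B, CD3D and CSF2RB, were named after their values were seen. On simulated counts of 10548 genes, edgeR recovered 97.4% of 192 changed genes with 1 false call. The labels name no clones, so this simulation does not show how many false calls repeats of 1 clone would give. It also does not cover fold changes smaller than those simulated. Alternatives were limma-voom (limma 3.58.1), DESeq2 1.42.0, RLE and library-size scaling, other filters and thresholds, AT-rich barcodes only, barcode class or surrogate variables (sva 3.50.0) as covariates, thinning to the smallest total, and leaving out libraries.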

Additional observations from a re-analysis of the deposited data

How the results depend on the processing

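Over the other settings tried, leaving out each library aside, 111 of 115 values of the 10 genes kept their direction and their side of an adjusted p of 0.05. Direction changed for STAT5B among AT-rich libraries (log2 fold change -0.074) and with barcode class as covariate (-0.0083), and for SOCS3 among AT-rich libraries (-0.057), none of them past the threshold, and KIT passed with surrogate variables (-1.05). The cause was not tested. The number of the 10 genes past both thresholds was 3, and 5 among AT-rich libraries (JAK2 and STAT5A added, 12 KO against 8 Control). It was 7 without and 0 with a doubled fold threshold (above 1). Of the 58 other pathway genes 10 passed, and 6, 24 and 2 under these same 3 settings. With barcode class as covariate 4 of the 10 genes passed, and 4 with surrogate variables as covariates. Over all genes 1085 passed both thresholds, and 1150 among AT-rich libraries. The number was 1720 without a filter, 672 at a mean of at least 10 CPM and 607 with every library thinned to 563235 UMIs. It was 3606 without a fold threshold and 368 above 1. From the summed UMIs of each group the STAT5A share differed by -8.18 percentage points. With each library left out in turn, 3 to 4 of the 10 genes passed, beside 1044 to 1126 over all genes. The STAT5A share then differed by -9.79 to -8.99 percentage points. Depth limits KIT, which fell under the count filter in 15 of 37 such comparisons, and after thinning JAK2, SOCS3 and KIT, and at a mean of at least 10 CPM SOCS3 and KIT, fell under the filter and gave no value. Labels carry no replicate numbers, so no paired analysis was possible because no library can be tied to one of the other group.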

Other observations

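CSF2RB, which encodes the common beta chain of the interleukin 3, interleukin 5 and GM-CSF receptors and like EPOR signals through JAK2 and STAT5, was under the count filter and was picked out after its values were seen. It had no UMI in any of the 26 KO libraries and 31 UMIs in Control, spread over 8 of 11 libraries with at most 9 in 1 of them (Control library 9). With 3 counts over the whole KO group as the limit that a count of 0 allows, the pooled Control level stood 17.8-fold above that limit. The error of the 31 Control UMIs is not part of this figure, so it is not a lower bound. Without a filter on low counts the adjusted p of CSF2RB was 7.27e-05 (edgeR).

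The ligands of these receptors were nearly absent in both groups. EPO had 5 UMIs, KITLG 12, IL3 1, CSF2 13 and THPO 17 over all 37 libraries, and none of the 5 passed the count filter. Among the other receptors, IL2RG, the common gamma chain, was the 1 tested and had a log2 fold change of -0.0036 (SE 0.13, adjusted p = 0.991, edgeR).

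SYK, a cytoplasmic kinase of blood cells, had values split among KO libraries, from 0.68 to 4.98 log2 CPM (SD 1.35), with 14 of 26 below the lowest Control library. Its log2 fold change of -0.61 (SE 0.38) did not pass (adjusted p = 0.218, edgeR).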
